A study of Mus musculus with 12 samples.

Results

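The terminal ileum of IL10-labelled mice was compared with that of C57-labelled mice when the mothers of both had received control cecal contents. The members are 6 of the 12 samples of the study, 3 with the description label c_control_IL10 (called IL10_control here) and 3 with a_control_WT (WT_control), and all 547 genes of the panel were taken. Each sample is total RNA from the terminal ileum of a female mouse. The genotype label is IL10 or C57, which the design text gives as IL10-deficient and C57BL/6 pups, and both groups were born to mothers given control contents. The other 6 samples carry the same genotype labels and come from pups of mothers given antibiotic-perturbed contents, labelled STAT (3 of IL10_STAT and 3 of WT_STAT), and they enter the fit and a comparison at the end. The labels and design text name no age, litter, cage or disrupted allele, and pups of a group may share a mother.

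Interleukin-10 is a cytokine made by regulatory T cells, macrophages and B cells that restrains macrophages and dendritic cells. Mice without it are known for gut inflammation that depends on the intestinal bacteria, with T helper cells that make interferon-gamma and IL-17. Interferon-gamma acts on a well-known set of genes, among them the chemokines Cxcl9 and Cxcl10, the MHC class II activator Ciita and the MHC genes themselves. Neutrophils, recruited by CXC chemokines and filled with the calprotectin subunits S100a8 and S100a9, are the classical mark of active gut inflammation.

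RNA was measured on a NanoString nCounter panel, which counts colour-coded probes bound to each transcript without amplification. Values are a normalized linear signal, and a signal under 20 is treated as low. The total signal was 213509 to 341946 in the WT_control samples and 559775 to 645272 in the IL10_control samples. Counts above background, rebuilt from the step between values, were 146691 to 365850 and 398625 to 506141, so depth and genotype label move together, and the part of depth in the results was not tested. Between 165 and 185 genes were low in a WT_control sample and between 93 and 107 in an IL10_control sample. The sample WT_control 3 had the lowest total and the lowest value of its group in 336 of 457 tested genes.

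Il10, the gene of the label, was read first. It read 0.452, 1.02 and 0 in WT_control and 35.2, 74.4 and 24.9 in IL10_control. All 3 IL10-labelled samples were above all 3 C57-labelled ones, against the label as read by this probe (at least 2.01-fold higher, log2 difference 4.85 ± 0.38, adjusted p = 3.01e-06 in limma's test). No source used here states where on the transcript this probe sits, and a probe outside the disrupted part would check nothing. The samples are therefore called by their labels, and each direction is IL10-labelled against C57-labelled.

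Epithelial RNA was looked for with Pigr and Ceacam1, epithelial genes of high signal that do not single out the ileum. Other members of the epithelial list fell, as given below. Pigr, the epithelial receptor that carries antibodies into the lumen, had a signal of 32749, 34526 and 13309.9 in WT_control and 49179, 24919.9 and 46848 in IL10_control. The adhesion gene Ceacam1 read 24153, 24538 and 11683 in WT_control and 33103, 22805 and 34473 in IL10_control. Both were high in all 6 samples, with WT_control 3 the lowest.

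Most tested genes were higher in IL10-labelled ileum. A gene was tested where 3 or more of the 12 samples reached a signal of 20. Of the 457 such genes, 245 rose (53.6%), 18 fell (3.94%) and 194 did not pass at an adjusted p under 0.05 in limma's test with Benjamini-Hochberg adjustment, with 3 samples in each group. Of the rises, 22 were 10-fold or more and 36 were under 2-fold, while no fall reached 4-fold. In 55 of the rises every sample of 1 group was under 20, so their folds are bounds. Such genes can pass the filter only through the other groups. The groups did not overlap for 280 genes (61.3%), of which 256 were higher (56%) and 24 lower (5.25%). The median log2 difference over all tested genes was 1.01, or 0.86 with values under 20 set to 20.

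How much of this is a shift of the whole panel depends on the scaling. With each sample centred on its median, 154 genes were higher (33.7%) and 183 lower (40%), against 245 and 18 as deposited, and the median moved from 1.01 to -0.16. Centring lowered every difference by the same amount, so the 18 falls could only move further below 0, and all of them kept their call. Of the 245 rises, 154 kept theirs, 215 stayed above 0 and 5 turned into falls: Nfkbia and, named after their values were seen, Ctsc (0.68 as deposited and -0.49 centred), Ifi35 (0.56 and -0.61), Il13ra1 (0.55 and -0.62) and Litaf (0.65 and -0.52). Ctsc and Il13ra1 also lost their calls without IL10_control 1 (0.67 and 0.46), IL10_control 2 (0.55 and 0.56) or WT_control 3 (0.49 and 0.38). A list of 15 broadly expressed genes, chosen after the data were seen (among them the proteasome genes Psmb5 and Psmb7), had a median of -0.06 on the deposited scale, and 0 of the 15 passed there, while 14 were lower when centred. Values below are on the deposited scale. Each list is given with its counts on both scales, to be read against the shares of all tested genes that rose and fell, 53.6% and 3.94% as deposited and 33.7% and 40% when centred.

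**Figure D1:**
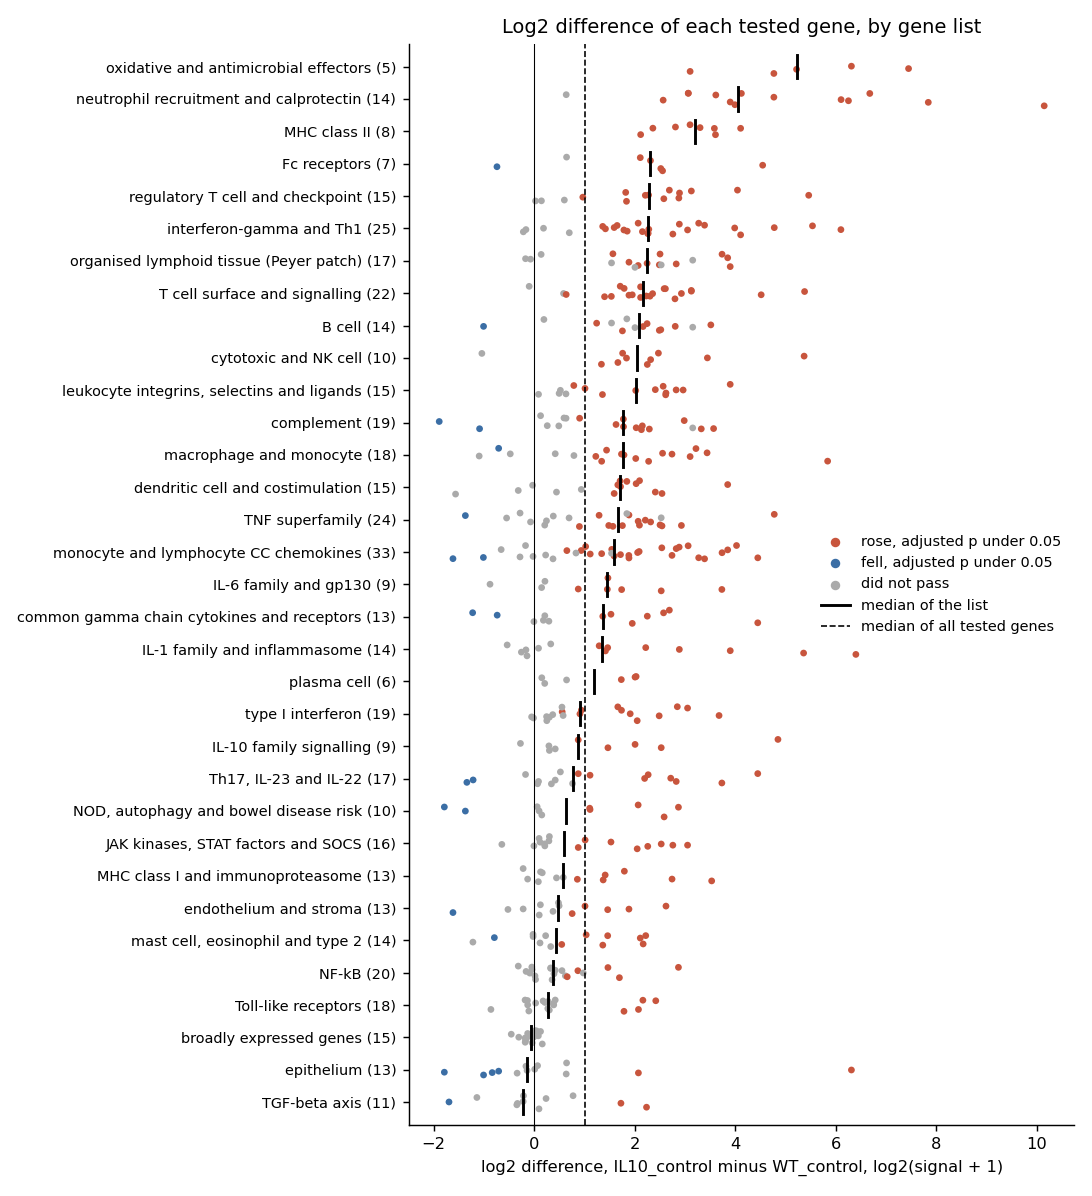
Each point is a tested gene, placed by its log2 difference (IL10_control minus WT_control, 3 samples each, log2 of signal plus 1) in the gene lists named on the left, with the number of tested members in brackets. Black bars mark list medians and the dashed line the median of all tested genes, 1.01. Oxidative effectors (median 5.22), neutrophil genes (4.06) and MHC class II (3.20) lie highest, and epithelium (-0.14) and the TGF-beta axis (-0.21) lowest.

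Most interferon-gamma target genes rose, while the receptor chains of the cytokine did not pass on the deposited scale. Of 25 tested members of the interferon-gamma and Th1 list, 21 rose and 0 fell, with a median log2 difference of 2.26, beside 53.6% of all tested genes that rose. When centred, 14 were higher and 3 lower (median 1.09). Ifng, the cytokine itself, was listed at 0, 0 and 0 in WT_control and read 9.59, 12.4 and 6.14 in IL10_control. Its samples did not overlap, but every value was below the floor of 20, so it was not tested. In bulk tissue, more cells of a type and more RNA per cell cannot be told apart.

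Cxcl9, a chemokine that draws activated T cells through the receptor CXCR3, had a signal of 20.4, 21.5 and 37.1 in WT_control and 1545, 2053 and 1873 in IL10_control. The IL10_control samples were tightly grouped and far above the others (68.8-fold, log2 6.10 ± 0.26, adjusted p = 5.31e-08). Cxcl10, a second ligand of that receptor, had a signal of 4.98, 11.9 and 3.64 in WT_control and 252, 408 and 347 in IL10_control. It was low in every C57-labelled sample and rose at least 16.5-fold (log2 5.54 ± 0.39, adjusted p = 1.52e-06). Both genes lie close together on chromosome 5, and their promoters are printed because both are among the 20 largest rises. The windows run from 250 bases before to 50 after the start site, from RefSeq on GRCm38.p6, on the minus strand at chr5:92328030-92328329 and chr5:92348840-92349139. Capitals mark matches, on either strand, to an interferon-response element (GAAA, any 2 bases, GAAA), a kappaB site (GGGA, any 4 bases, CC) or a Y box (ATTGG, or CCAAT on the other strand).
Cxcl9: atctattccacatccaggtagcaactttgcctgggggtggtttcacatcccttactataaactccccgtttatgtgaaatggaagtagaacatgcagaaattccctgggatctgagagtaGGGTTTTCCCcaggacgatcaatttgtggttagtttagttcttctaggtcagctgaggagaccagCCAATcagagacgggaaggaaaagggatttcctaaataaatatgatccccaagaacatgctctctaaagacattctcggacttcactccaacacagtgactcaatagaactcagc
Cxcl10: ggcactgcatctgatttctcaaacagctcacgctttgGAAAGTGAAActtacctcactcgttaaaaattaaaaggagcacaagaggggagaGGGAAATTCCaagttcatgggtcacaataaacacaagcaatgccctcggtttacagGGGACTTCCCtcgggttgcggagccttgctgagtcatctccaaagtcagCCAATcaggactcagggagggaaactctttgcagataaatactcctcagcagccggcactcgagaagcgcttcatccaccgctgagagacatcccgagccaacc
The Cxcl10 window holds the interferon-response motif, starting at -213 from the start site, 2 kappaB matches at -159 and -103 and a Y box at -54. The Cxcl9 window holds a kappaB match at -130 and a Y box at -65. Among all 27025 mouse genes with such a window, 3.99% hold the interferon-response motif, 22.9% a kappaB match and 41.1% a Y box. Among the 186 panel genes that rose and have a window the shares are 7.53%, 34.4% and 30.6%, and among the 146 that did not pass they are 6.16%, 39% and 38.4%. A match describes letters and is not a binding site.

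Further along the pathway, Socs1, a feedback inhibitor of interferon signalling, read 72.8, 58.3 and 80.8 in WT_control and 425, 582 and 447 in IL10_control and rose 6.77-fold. The defence GTPase Irgm1 rose 4.19-fold (log2 2.07 ± 0.20) and the T cell chemokine Ccl5 10.5-fold (log2 3.39 ± 0.31). Nos2, the inducible nitric oxide synthase, read 19.5, 14.7 and 22.6 in WT_control and 757, 704 and 732 in IL10_control. The 3 IL10_control values were nearly level (37.3-fold, adjusted p = 9.17e-07). Ifngr1, the ligand-binding receptor chain, read 5363, 6070.2 and 3194 in WT_control and 5884, 4803 and 5405 in IL10_control (log2 0.18 ± 0.24, and -0.99 when centred). Its groups overlapped, and it did not pass as deposited but passed as lower when centred.

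In the type I interferon list, 11 of 19 tested members rose and 0 fell, and when centred 7 were higher and 7 lower (the median of 0.91 turned to -0.26). Ifit2, an interferon-induced inhibitor of viral translation, read 80.1, 65.1 and 35.7 in WT_control and 733, 672 and 835 in IL10_control and rose 12.8-fold (adjusted p = 7.43e-06). Tmem173 (now Sting1), the adaptor of cytosolic DNA sensing, rose 7.20-fold, Ifi204 5.61-fold, the membrane antiviral gene Ifitm1 3.76-fold, and Bst2, which tethers virus particles, 3.17-fold (its call ended when centred, log2 0.49).

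Antigen presentation by MHC class II rose in every member tested. All 8 tested members rose, where 53.6% of tested genes did, and the median was 3.20 (7 higher and 0 lower when centred, median 2.03). Ciita, the master activator that class II genes depend on, read 67.4, 95.2 and 53.1 in WT_control and 1264, 1041 and 1384 in IL10_control. It rose 17.2-fold with no overlap (log2 4.11 ± 0.40, adjusted p = 1.01e-05). Cd74, the invariant chain that guards the class II groove, read 5886, 6499 and 5567 in WT_control and 84741, 63052 and 72219.6 in IL10_control, and in IL10_control it was among the brightest genes of the panel (12.2-fold, adjusted p = 9.17e-07). H2-Ab1, a class II beta chain, read 2125, 2285 and 2139 in WT_control and 24836, 19293 and 20761 in IL10_control and rose 9.85-fold. H2-Aa, its alpha partner, rose 8.58-fold, the second beta chain H2-Eb1 7.02-fold, and H2-DMa, part of the peptide-loading enzyme, 12.002-fold. For all 6 genes the IL10_control samples lay above every WT_control sample.

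The promoters of H2-Aa and H2-Eb1 are shown because class II genes rose together and share a known Y box upstream of the start site. They lie at chr17:34287774-34288073 on the minus strand and chr17:34305617-34305916 on the plus strand (RefSeq, GRCm38.p6), with the same motifs in capitals.
H2-Aa: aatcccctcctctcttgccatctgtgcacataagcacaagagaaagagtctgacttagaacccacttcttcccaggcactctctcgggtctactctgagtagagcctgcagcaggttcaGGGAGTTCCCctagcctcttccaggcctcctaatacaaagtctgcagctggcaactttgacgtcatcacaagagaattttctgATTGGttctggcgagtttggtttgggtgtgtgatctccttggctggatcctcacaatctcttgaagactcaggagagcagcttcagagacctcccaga
H2-Eb1: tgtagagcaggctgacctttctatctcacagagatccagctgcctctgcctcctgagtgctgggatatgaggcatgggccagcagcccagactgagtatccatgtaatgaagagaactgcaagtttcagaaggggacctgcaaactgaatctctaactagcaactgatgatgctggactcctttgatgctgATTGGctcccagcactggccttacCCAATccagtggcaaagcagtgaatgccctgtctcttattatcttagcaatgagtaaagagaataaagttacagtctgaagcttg
H2-Aa has a Y box at -48 and a kappaB match at -131, and H2-Eb1 has Y boxes at -59 and -35. All 5 members of the list with a window hold at least 1 Y box, beside 41.1% of all mouse genes with a window. The interferon-gamma-activated motif (TTC, any 3 bases, GAA; both strands) is in 1 of these 5 genes and in 9.55% of all genes.

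In the MHC class I list, 6 of 13 tested members rose and 0 fell, and when centred 3 were higher and 7 lower (the median of 0.58 turned to -0.59). Tap1, the peptide transporter, read 192, 255 and 140.5 in WT_control and 2067, 2122 and 2464 in IL10_control and rose 11.6-fold (adjusted p = 2.45e-06). Psmb9, a catalytic subunit of the immunoproteasome that interferon-gamma induces, read 222, 233 and 221 in WT_control and 1474, 1364 and 1722 in IL10_control and rose 6.69-fold (log2 2.74 ± 0.19). Psmb5 and Psmb7, catalytic subunits of the ordinary proteasome, read 1519.7, 1409 and 1677 in WT_control and 1395, 1327 and 1478 in IL10_control, and 1359, 1289 and 1302 in WT_control and 1447, 1303 and 1434 in IL10_control, respectively. Their differences were -0.13 ± 0.16 and 0.08 ± 0.16, neither passed, and their samples overlapped. When centred, Psmb5 was at -1.30 (adjusted p = 0.00161) and Psmb7 at -1.09 (adjusted p = 0.00336), so both passed there as lower. The class I light chain B2m rose 3.47-fold and the heavy chain H2-K1 2.66-fold. No source used here states the probe sequences, so binding to near-identical MHC genes could not be checked for H2-K1 or for H2-Q10 (2.59-fold higher). The calls of H2-K1 and H2-Q10 ended when centred (log2 0.24 and 0.20).

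**Figure D2:**
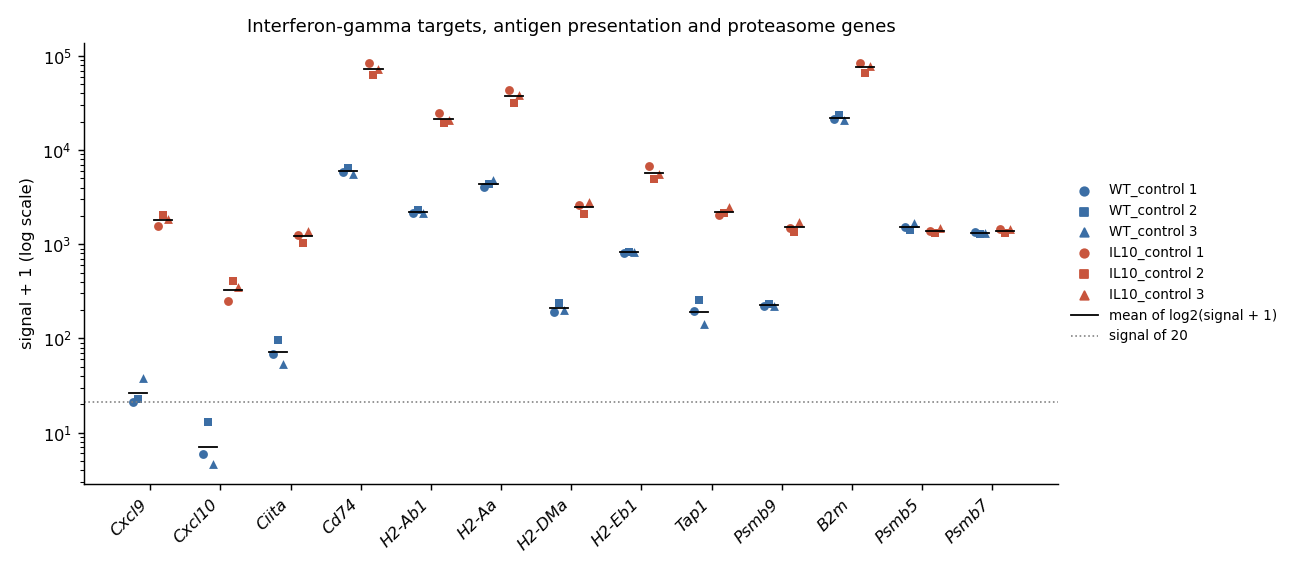
Signal plus 1 on a log axis for each of the 3 WT_control (blue) and 3 IL10_control (red) samples, with the mean of the log2 values as a bar and the floor of 20 dotted. Cxcl9, Ciita, the class II genes, Tap1 and Psmb9 separate without overlap, while Psmb5 and Psmb7 overlap between the groups.

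Neutrophil genes rose by large factors, with a wide spread between mice. Of 14 tested members of the list, 13 rose and 0 fell, beside 53.6% of all tested genes that rose. Their median was 4.06 (2.39 after raising lower values to 20). When centred, 12 were higher and 0 lower (median 2.89). Another 4 of the 18 members on the panel were too low to test. S100a8, S100a9, Cxcl1, Clec4e, Clec5a and Camp were low in every WT_control sample, so within this contrast only IL10_control samples reached the floor for them. S100a8, a calprotectin subunit, read 2.26, 7.84 and 13.8 in WT_control and 1712, 18686 and 161 in IL10_control. IL10_control 2 was the highest and IL10_control 3 the lowest, yet all 3 lay above every WT_control value (at least 86.3-fold, log2 7.84 ± 1.58, adjusted p = 0.00134). S100a9, the other subunit, was listed at 0 in all WT_control samples and read 1208, 9999 and 120.2 in IL10_control (at least 56.6-fold, adjusted p = 5.25e-05). The bounds rest on single mice: without IL10_control 2 they are at least 26.2-fold and 19.1-fold, and without IL10_control 3 at least 283-fold and 174-fold. The summed signal of the list, 11829.7 to 24729 in WT_control and 35543.6 to 55530 in IL10_control, is no measure of neutrophil genes, since nearly all of it in WT_control and most in 2 IL10_control samples came from Ceacam1, the member that did not pass and is also expressed by epithelium.

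The order of the mice was the same over nearly the whole list. IL10_control 2 was the highest of its group in 13 of 14 members and IL10_control 3 the lowest in 13 of 14, while over all tested genes these shares were 181 and 238 of 457. Cxcl1, a chemokine that attracts neutrophils, read 0.452, 1.02 and 0 in WT_control and 159.97, 234 and 33.6 in IL10_control, in that same order (at least 5.39-fold, adjusted p = 7.87e-05, and at least 9.67-fold without IL10_control 3). Clec4e, a myeloid receptor for microbial glycolipids, read 0, 2.39 and 0 in WT_control and 196, 345 and 52.3 in IL10_control (at least 7.62-fold, at least 5.07-fold without IL10_control 2 and 13.01-fold without IL10_control 3), and the receptor chain Csf2rb rose 8.38-fold. Itgb2, the beta chain of the leukocyte integrins, rose 5.92-fold and Clec5a at least 5.12-fold. Camp, the antimicrobial peptide cathelicidin, read 1.36, 1.02 and 0 in WT_control and 12.6, 709 and 9.03 in IL10_control. One mouse held most of that signal. The gene passed with all samples (at least 3.29-fold, adjusted p = 0.031) but not when centred (adjusted p = 0.0654), with values under 20 set to 20, or without IL10_control 2 (log2 2.79) or without any 1 WT_control sample (4.39 to 5.01).

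IL-1 genes also varied between the mice, with IL10_control 3 the lowest of its group in 10 of 14 members. In the IL-1 family and inflammasome list 8 of 14 tested members rose and 0 fell (median 1.35), a share near the 53.6% of all tested genes. When centred, 4 were higher and 5 lower (median 0.18). Il1b, the main secreted IL-1, read 23.98, 9.21 and 9.46 in WT_control and 1357, 1277 and 106 in IL10_control: IL10_control 3 was well below the other 2 and still above every WT_control sample (41.1-fold, log2 5.36 ± 0.87, adjusted p = 0.000325). The rise was 26.6-fold without IL10_control 1 and 94.98-fold without IL10_control 3. Il1a was listed at 0 in WT_control and read 261, 268 and 7.58 in IL10_control, with the third mouse below the floor (at least 5.59-fold, adjusted p = 0.000651). Its bound was 3.61-fold without IL10_control 2, 3.66-fold without IL10_control 1 and 13.2-fold without IL10_control 3. The decoy receptor Il1r2 rose at least 5.07-fold (at least 8.99-fold without IL10_control 3), the IL-18 receptor chain Il18rap at least 1.64-fold, and the alarmin Il33 and its receptor Il1rl1 2.76-fold and 4.66-fold. The calls of Il33 and Il1rl1 ended when centred (log2 0.29 and 1.05), and that of Il18rap with values under 20 set to 20, the setting of its bound. Il18, which epithelium makes constantly, read 494, 488 and 440.3 in WT_control and 416, 364 and 497 in IL10_control (log2 -0.16 ± 0.22) and did not pass, but passed as lower when centred (-1.33, adjusted p = 0.00593).

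RNA of some effector genes rose without such spread. Nox1, the NADPH oxidase of intestinal epithelium, read 25.8, 10.6 and 32.7 in WT_control and 1936, 1564 and 1733 in IL10_control. Its IL10_control values lay within a narrow band, 79.5-fold above the others (log2 6.31 ± 0.36, adjusted p = 7.1e-07). Pla2g2a, the gene of a secreted phospholipase, read 4.07, 0 and 8.01 in WT_control and 665, 896 and 408 in IL10_control (at least 31.2-fold, adjusted p = 1.36e-05). Only RNA was measured, and whether the Pla2g2a RNA gives a working enzyme in these mice was not tested. Cybb, the oxidase of phagocytes, rose 8.59-fold. All 5 tested members of the oxidative and antimicrobial list rose, beside 53.6% of all tested genes, and 4 were higher when centred. Another 5 of its 10 members on the panel were too low to test. Camp and Pla2g2a were low in every WT_control sample, so within this contrast only IL10_control samples reached the floor for them.

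**Figure D3:**
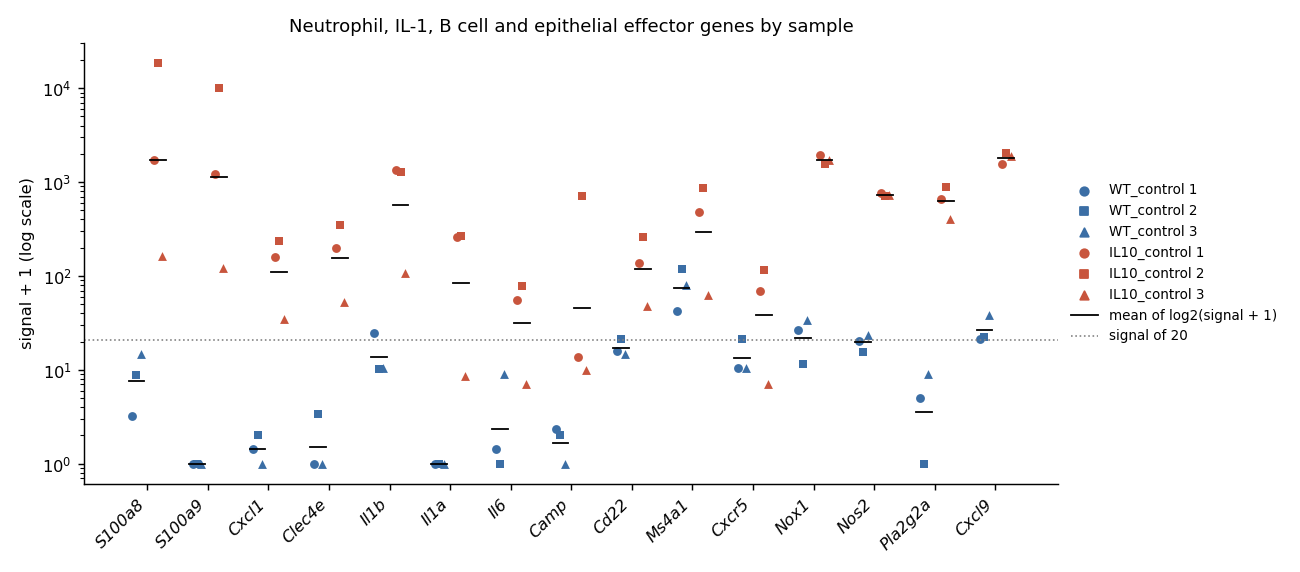
Signal plus 1 on a log axis for each mouse, with a marker shape for each replicate of WT_control (blue) and IL10_control (red), bars at the mean of the log2 values and the floor of 20 dotted. IL10_control 3 (red triangle) is the lowest red point for S100a8, S100a9, Il1b, Il6, Cd22 and Ms4a1, while Nox1, Nos2 and Cxcl9 are nearly level across the same 3 mice.

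Other inflammatory cytokines were detected mainly in the IL10-labelled samples. Tnf read 3.17, 9.21 and 5.09 in WT_control and 193, 224 and 122 in IL10_control and rose at least 8.69-fold with all 3 mice well separated (log2 4.78 ± 0.57, adjusted p = 3.57e-05). Il6 read 0.452, 0 and 8.01 in WT_control and 54.7, 76.6 and 6.14 in IL10_control, so IL10_control 3 lay within the WT_control range, and the gene still passed (at least 2.19-fold, adjusted p = 0.0123). It did not pass without IL10_control 2 (log2 3.08) or without WT_control 2 (3.12). Il17a, the signature cytokine of Th17 cells, read 0, 5.12 and 3.64 in WT_control and 21.6, 34.6 and 9.03 in IL10_control (at least 1.23-fold). Its adjusted p was 0.00427 on the deposited values, and the call ended with values under 20 set to 20, the setting of the bound. Il22, which drives epithelial defence, read 0, 0 and 0 in WT_control and 0, 9.12 and 0 in IL10_control and was too low to be tested.

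In the IL-6 family list 6 of 9 tested members rose and 0 fell (median 1.45), and when centred 1 was higher and 3 lower (median 0.28). Socs3, the inhibitor induced by Stat3, read 40.3, 16.03 and 95.3 in WT_control and 198, 299 and 217 in IL10_control and rose 5.77-fold (3.73-fold without WT_control 2 and 8.87-fold without WT_control 3). Lif rose 3.34-fold, the acute-phase regulator Cebpb 2.74-fold and the atypical IkB protein Bcl3 2.76-fold. The calls of these 4 genes ended when centred (Socs3 log2 1.36, Lif 0.57, Cebpb 0.28 and Bcl3 0.30). Stat3 itself rose 1.84-fold as deposited and was at -0.29 when centred. The shared receptor Il6st (0.15 ± 0.28) did not pass as deposited and passed as lower when centred (-1.02). In the IL-10 family list 5 of 9 tested members rose and 0 fell, and when centred 2 were higher and 3 lower (the median of 0.88 turned to -0.29). Among receptor chains for IL-10, the inducible Il10ra read 72.8, 58.3 and 51.7 in WT_control and 228, 312 and 208 in IL10_control and rose 4.02-fold, and the broadly expressed Il10rb (-0.27 ± 0.19) did not pass as deposited and passed as lower when centred (-1.44, adjusted p = 0.000221).

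Monocyte chemokines and macrophage genes mostly rose, and Ccl6, Ccrl1 and Cd9 fell. In the CC chemokine and receptor list 23 of 33 tested members rose and 2 fell, with a median of 1.59. When centred, 12 were higher and 7 lower (median 0.42). Ccl8, a monocyte chemokine, read 111, 70.6 and 191 in WT_control and 2699.9, 2525 and 2354 in IL10_control and rose 21.8-fold (log2 4.45 ± 0.35, adjusted p = 3.01e-06). Ccl2, the ligand of CCR2 that calls monocytes from blood, read 33.03, 17.4 and 57.5 in WT_control and 480.3, 774 and 423 in IL10_control and rose 16.3-fold. Both separated fully. Ccl22, made by dendritic cells and macrophages, rose 5.81-fold, and the chemokine receptor Cxcr6 4.16-fold. Ccl6 read 2753, 2886 and 2814 in WT_control and 1989, 791 and 1732 in IL10_control and fell 2.02-fold (log2 -1.01 ± 0.30, adjusted p = 0.0135). Ccrl1 (now Ackr4), a receptor that scavenges chemokines without signalling, read 232, 249 and 218 in WT_control and 89.3, 65.5 and 72.6 in IL10_control and fell 3.07-fold (log2 -1.62 ± 0.23, adjusted p = 0.000115).

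Of 18 tested macrophage and monocyte genes 13 rose and 1 fell (median 1.76), and when centred 10 were higher and 3 lower (median 0.59). Fcgr1, the high-affinity IgG receptor, read 52.9, 41.9 and 72.05 in WT_control and 310.4, 421 and 260.3 in IL10_control and rose 5.87-fold. Emr1 (now Adgre1), which encodes the F4/80 antigen, rose 3.33-fold, the scavenger receptor Msr1 4.85-fold, and the inhibitory receptors Lilrb4 and Lilrb3 10.9-fold and 9.31-fold. Cd163, a scavenger receptor of resident macrophages, had lower values without passing. Its signal was 173, 192 and 104 in WT_control and 68.2, 46.7 and 109 in IL10_control, with IL10_control 3 inside the WT_control range (log2 -1.10 ± 0.45, adjusted p = 0.0566). It passed without IL10_control 3 (-1.41), without WT_control 3 (-1.36) and when centred (-2.27, adjusted p = 0.00171).

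Fc receptors that bind IgG in tissue rose, and the one that recycles IgG fell. Fcgr4, an activating receptor of neutrophils and monocytes, read 25.8, 25.6 and 41.5 in WT_control and 739, 1289.8 and 403 in IL10_control and rose 23.4-fold (adjusted p = 7.43e-06). Fcgr3 rose 4.97-fold, the inhibitory Fcgr2b 5.73-fold and the shared signalling chain Fcer1g 4.32-fold. Fcgrt, the neonatal Fc receptor, read 1908, 2236 and 1497 in WT_control and 1303, 799 and 1312 in IL10_control and fell 1.67-fold (log2 -0.74 ± 0.26, adjusted p = 0.028). That call was lost without IL10_control 2 (-0.50), WT_control 1 (-0.72) or WT_control 2 (-0.61). Over the list 5 of 7 tested members rose and 1 fell, on both scales.

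Complement genes rose in 11 of 19 tested members and fell in 2 (median 1.77), a share of rises near the 53.6% of all tested genes. When centred, 8 were higher and 5 lower (median 0.60). C2, a protease of the classical pathway, read 47.5, 63.8 and 26.9 in WT_control and 449, 528 and 370.03 in IL10_control and rose 10.02-fold (adjusted p = 8.03e-06). C3, on which all complement pathways converge, read 347, 318 and 277 in WT_control and 2772, 3323 and 1661 in IL10_control and rose 7.92-fold. The recognition chains C1qa and C1qb rose 3.43-fold and 4.08-fold, the protease C1ra 4.39-fold, and C6 of the membrane attack complex at least 5.48-fold. C4bp, an inhibitor of the classical pathway, read 73.7, 81.5 and 40.03 in WT_control and 33.6, 26.8 and 26.4 in IL10_control and fell 2.13-fold. C9, the last part of the membrane attack complex, read 42.98, 48.8 and 24.02 in WT_control and 17.1, 3.59 and 11.9 in IL10_control and fell at least 1.85-fold (adjusted p = 0.0136), a call lost without IL10_control 2 (log2 -1.31).

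Most T cell genes rose. Of 22 tested members 20 rose and 0 fell, with a median of 2.17. When centred, 16 were higher and 1 lower (median 1.0). Cd3d, a chain of the T cell receptor complex, read 76.5, 96.5 and 72.05 in WT_control and 349, 423 and 302 in IL10_control and rose 4.34-fold (adjusted p = 8.03e-06). The helper co-receptor Cd4 read 85.5, 58.3 and 67.7 in WT_control and 352, 306 and 265 in IL10_control and rose 4.34-fold. The groups of both genes were well apart. Cd2, an adhesion receptor, rose 8.73-fold, the costimulator Icos 8.74-fold, the kinase Map4k1 4.69-fold and the scavenger-type receptor Cd6 at least 3.70-fold.

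Regulatory and checkpoint genes rose alongside. Of 15 tested members 12 rose and 0 fell (median 2.28), and when centred 10 were higher and 2 lower (median 1.11). Foxp3, the defining factor of regulatory T cells, read 6.79, 2.39 and 0 in WT_control and 51.7, 47.8 and 45.1 in IL10_control and rose at least 2.41-fold (log2 4.05 ± 0.95, adjusted p = 0.00339). Ctla4, an inhibitory receptor of activated and regulatory T cells, read 1.36, 2.39 and 2.18 in WT_control and 143, 148 and 99.998 in IL10_control (at least 6.43-fold, adjusted p = 5.37e-06). Il2ra, the high-affinity chain of the IL-2 receptor, rose 6.45-fold, Cd274 (PD-L1) 7.42-fold and Tigit at least 2.74-fold.

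Cytotoxic genes rose in 9 of 10 tested members, with 0 falls (median 2.04), and when centred 6 were higher and 1 lower (median 0.87). Gzma, a granzyme of cytotoxic lymphocytes, read 33.9, 10.6 and 6.55 in WT_control and 808, 427 and 624 in IL10_control and rose 41.4-fold (log2 5.37 ± 0.50, adjusted p = 8.03e-06, and 64.2-fold without WT_control 1). The activating receptor Klrk1 (NKG2D) rose 3.39-fold, the inhibitory Klrc1 at least 3.08-fold and Klrd1 2.53-fold (its call ended when centred, 0.17). Ncam1 read 406, 259 and 148 in WT_control and 142, 77.7 and 159 in IL10_control and did not pass (log2 -1.04 ± 0.47, adjusted p = 0.0793). It passed as lower without WT_control 3 (-1.42) and when centred (-2.21, adjusted p = 0.000899).

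In the common gamma chain list 7 of 13 tested members rose and 2, the cytokines Il15 and Il7, fell. When centred, 5 were higher and 6 lower (median 0.19, from 1.36). The shared chain Il2rg read 33.9, 47.4 and 32.7 in WT_control and 213, 285 and 197 in IL10_control and rose 5.96-fold, Il2rb rose 4.76-fold, Il7r 3.87-fold, Il4ra 2.58-fold and the kinase Jak3 2.88-fold. The calls of Il4ra and Jak3 ended when centred (0.19 and 0.36). Il15, which keeps intraepithelial and memory T cells alive, read 219, 232 and 142 in WT_control and 109, 61.1 and 82.7 in IL10_control and fell 2.34-fold (log2 -1.23 ± 0.26, adjusted p = 0.002). Il7, a survival factor of lymphocytes, read 70.1, 76.1 and 63.3 in WT_control and 44.2, 42.3 and 37.9 in IL10_control and fell 1.67-fold (log2 -0.74 ± 0.25, adjusted p = 0.0254). Both cytokines were lower in every IL10_control sample than in any WT_control sample. The call of Il7 was lost without IL10_control 2 (-0.75), IL10_control 3 (-0.68), WT_control 1 (-0.73) or WT_control 2 (-0.67).

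B cell genes were uneven between the mice. Of 14 tested members 8 rose and 1 fell, with a median of 2.09 (4 higher and 2 lower when centred, median 0.92), and IL10_control 3 was the lowest of its group in 12 of 14. The summed signal of the list was 10005.2 to 11791.9 in WT_control and 8263 to 12158.4 in IL10_control, and in WT_control most of it came from Cd24a, which fell. Cd22, a B cell lectin, read 14.9, 20.1 and 13.8 in WT_control and 136, 261 and 46.6 in IL10_control and rose 6.996-fold (adjusted p = 0.00286, and 11.1-fold without IL10_control 3). Ms4a1, which encodes CD20, read 41.2, 118 and 79.3 in WT_control and 480.3, 855 and 62.5 in IL10_control and did not pass (log2 2.01 ± 0.90, adjusted p = 0.0793). Cxcr5, the receptor that guides B cells into follicles, read 9.50, 20.1 and 9.46 in WT_control and 68.2, 114 and 6.14 in IL10_control and did not pass either. For both, 2 IL10-labelled mice were high and IL10_control 3 lay within or below the WT_control range. Without that mouse both passed (log2 3.12 and 2.75). The factor Pou2f2 rose 4.49-fold and the kinase Btk 2.37-fold (its call ended when centred, 0.07).

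Prdm1 and Irf4, the factors of plasma cell differentiation, read 44.8, 50.1 and 19.6 in WT_control and 161, 153 and 125 in IL10_control, and 24.9, 24.2 and 22.6 in WT_control and 134, 79.9 and 94.2 in IL10_control. Both separated fully and rose 4.02-fold and 4.08-fold, as did the surface receptor Slamf7 (3.32-fold). After quantile normalization the calls of Prdm1 and Irf4 ended (adjusted p = 0.0651 and 0.368 in limma's test). In all, 3 of 6 tested members rose and 0 fell (median 1.19), and when centred 3 were higher and 1 lower (median 0.02).

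Genes of organised lymphoid tissue, of which the ileum holds Peyer patches, also differed between the IL10-labelled mice. Of 17 tested members 10 rose and 0 fell (median 2.25; 7 higher and 3 lower when centred, median 1.08), and IL10_control 3 was the lowest of its group in 15 of 17. Their summed signal was 1773 to 2237 in WT_control and 2496 to 6706 in IL10_control. Ccl19, a chemokine of T cell zones, read 9.50, 10.6 and 13.8 in WT_control and 169, 355 and 69.7 in IL10_control and rose at least 8.06-fold (at least 12.3-fold without IL10_control 3), and its receptor Ccr7 read 3.17, 17.4 and 12.4 in WT_control and 163, 259 and 71.1 in IL10_control and rose at least 7.21-fold. Cxcl13, the follicle chemokine, rose 3.69-fold, and the lymphotoxins Lta and Ltb at least 2.44-fold and 4.19-fold. The labels do not say whether a sample held a patch, and the part of sampled lymphoid tissue in the B cell values was not tested.

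Dendritic cell genes rose in 10 of 15 tested members with 0 falls (median 1.71), and when centred 5 were higher and 4 lower (median 0.54). The integrin Itgax (CD11c) read 65.6, 77.4 and 37.1 in WT_control and 310.4, 311 and 306 in IL10_control and rose 5.31-fold. Batf3, a factor of cross-presenting dendritic cells, rose at least 2.56-fold, Irf8 3.01-fold and the costimulator Cd86 3.27-fold. The calls of these 3 genes ended when centred (0.67, 0.42 and 0.54).

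In the integrin and selectin list 11 of 15 tested members rose and 0 fell (median 2.02), and when centred 8 were higher and 3 lower (median 0.85). Vcam1, which holds leukocytes on inflamed endothelium, read 118, 135 and 88.1 in WT_control and 805, 799 and 520.2 in IL10_control and rose 6.16-fold, and Icam1 rose 6.13-fold. Their partner Itgal, the alpha chain of LFA-1, read 81.9, 105 and 51.7 in WT_control and 558, 632 and 462 in IL10_control and rose 7.08-fold, and the leukocyte sialomucin Spn 7.80-fold. Pecam1, found on all endothelium, differed by 0.50 ± 0.43 and did not pass as deposited, but passed as lower when centred (-0.67). In the endothelium and stroma list 5 of 13 rose and 1 fell, and when centred 2 were higher and 8 lower (the median of 0.48 turned to -0.69).

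More epithelial genes fell than rose in the fit of all samples. Of 13 tested members 2 rose and 4 fell, beside 3.94% of all tested genes that fell, and the median was -0.14. When centred, 1 was higher and 9 lower (median -1.31). The summed signal of the list was 46936.5 to 96539.3 in WT_control and 62291.6 to 105627 in IL10_control. Abcb1a, the efflux pump of the gut lining, read 12711, 11575 and 2913 in WT_control and 3392, 1191 and 2569 in IL10_control. WT_control 3 lay below IL10_control 1, so the groups overlapped, although the gene passed (fell 3.45-fold, log2 -1.79 ± 0.57, adjusted p = 0.0177). Without WT_control 3 the fall was 5.56-fold, and the call was lost without IL10_control 2 (-1.35), WT_control 1 (-1.41) or WT_control 2 (-1.48). Cd24a, a surface protein of crypt cells and B cells, read 9657, 8713 and 8318 in WT_control and 6028, 3140.1 and 4542 in IL10_control and fell 2.01-fold (log2 -1.01 ± 0.23, adjusted p = 0.00317). Btnl1, which supports intraepithelial gamma-delta T cells, read 2682, 2929 and 1647 in WT_control and 1587, 949 and 1508 in IL10_control and fell 1.79-fold (adjusted p = 0.0342), and the tetraspanin Cd9 fell 1.63-fold (log2 -0.71 ± 0.22). Neither passed without IL10_control 2 (-0.60 and -0.50), WT_control 1 (-0.74 and -0.66) or WT_control 2 (-0.68 and -0.60). Abcb1a, Btnl1 and Cd9 also lost their calls with the 6 control-inoculum samples alone, where Cd24a, Nox1 and Muc1 kept theirs. The 2 members that rose were Nox1 and Muc1, a membrane mucin that read 16.7, 14.7 and 6.55 in WT_control and 53.2, 32.3 and 85.6 in IL10_control (at least 2.64-fold, with its call ended when centred, log2 0.90). IL10_control 2 was the lowest of its group in 12 of 13 epithelial members, as it was in 13 of 15 broadly expressed genes, 10 of 13 MHC class I genes, 8 of 10 cytotoxic genes and 180 of all 457.

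Among the other falls were receptors for IL-17 family cytokines. Il17re, the receptor through which epithelium senses IL-17C, read 189, 259 and 122 in WT_control and 103, 50.04 and 89.9 in IL10_control and fell 2.32-fold (adjusted p = 0.0123). Il17rb, a chain of the IL-25 receptor, read 134, 172 and 96.8 in WT_control and 54.7, 43.4 and 76.9 in IL10_control and fell 2.28-fold (adjusted p = 0.00342). In both genes every IL10_control value was below every WT_control value. Il17re did not pass without IL10_control 2 (-0.91) or without WT_control 2 (-0.96). In the Th17 list as a whole 8 of 17 tested members rose and 2 fell, and when centred 5 were higher and 6 lower (the median of 0.76 turned to -0.41). The risers included Batf (4.59-fold), the IL-23 receptor partner Il12rb1 (at least 1.18-fold) and Il21r (at least 3.55-fold). The call of Il12rb1 ended when centred (1.10) and with values under 20 set to 20, the setting of its bound.

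The remaining falls had diverse roles. Cd109, a co-receptor that dampens TGF-beta signalling, read 531, 405 and 339.9 in WT_control and 124, 89.9 and 189.5 in IL10_control and fell 3.24-fold (log2 -1.70 ± 0.39, adjusted p = 0.00317). Tnfsf15 (TL1A), a bowel disease risk gene and T cell costimulator, read 86.4, 52.9 and 35.7 in WT_control and 33.6, 19.1 and 13.4 in IL10_control and fell 2.59-fold (log2 -1.37 ± 0.37, adjusted p = 0.00761). The death-domain adaptor Cradd fell 1.69-fold. Tslp, an epithelial alarmin of type 2 responses, read 53.8, 39.2 and 24.02 in WT_control and 23.1, 26.8 and 14.8 in IL10_control, overlapped, and fell 1.73-fold (adjusted p = 0.0463), a call lost without any 1 of 4 samples (WT_control 1 -0.53, WT_control 2 -0.75, IL10_control 1 -0.86, IL10_control 3 -0.56). Over the 18 falls, IL10_control 2 was the lowest of its group in 13 and WT_control 3 the lowest of its group in 17. Without WT_control 3 there were 39 falls, and without WT_control 1, WT_control 2 or IL10_control 2 there were 12, 11 and 12.

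**Figure D4:**
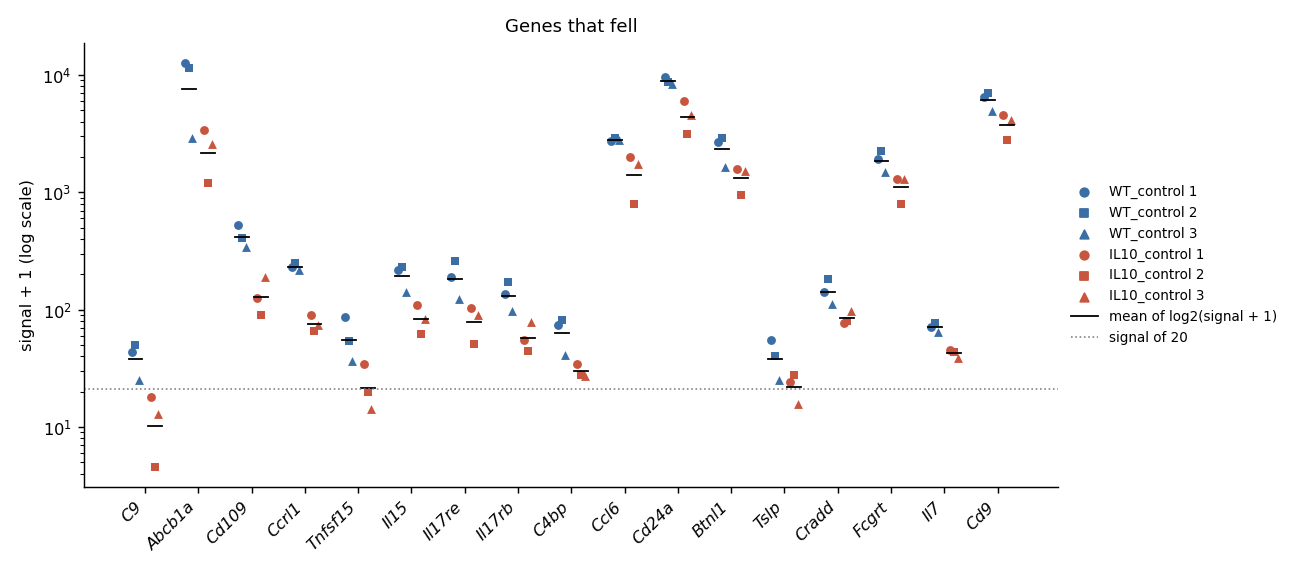
Signal plus 1 on a log axis for genes that fell, ordered by log2 difference, for 3 WT_control (blue) and 3 IL10_control (red) samples, with bars at the mean of the log2 values and the floor of 20 dotted. WT_control 3 (blue triangle) is the lowest blue point in each gene shown but Ccl6, and meets the red points in Abcb1a and Tslp.

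Of 14 tested type 2 genes 7 rose and 1 fell, and when centred 2 were higher and 6 lower (the median of 0.44 turned to -0.73). Gata3, the factor of Th2 cells and type 2 innate lymphocytes, read 37.6, 22.8 and 24.02 in WT_control and 140.4, 115 and 126 in IL10_control and rose 4.49-fold (adjusted p = 0.000139). Kit, a mast cell and pacemaker cell receptor, read 545, 564 and 187 in WT_control and 232, 83.2 and 233 in IL10_control and did not pass (-1.22 ± 0.52). It passed as lower without WT_control 3 (-1.74) and when centred (-2.39, adjusted p = 0.000869).

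The calls of sensors and core signalling genes depended on the scaling. Of 18 tested Toll-like receptor pathway genes 4 rose and 0 fell, and when centred 4 were higher and 14 lower (the median of 0.27 turned to -0.90). The risers were Tlr8 (5.35-fold), Tlr9 (4.21-fold), Cd14 (3.45-fold) and Ly86 (4.48-fold). Of 20 tested NF-kB genes 5 rose and 0 fell, and when centred 2 were higher and 14 lower (the median of 0.37 turned to -0.80). Tnfaip3 (A20), a feedback inhibitor, read 221, 252 and 155 in WT_control and 786, 728 and 519 in IL10_control and rose 3.24-fold, and the adaptor Card9 rose at least 4.09-fold. Nfkbia, the inhibitor that NF-kB induces, rose 1.58-fold as deposited, was at -0.51 when centred, and did not pass without IL10_control 1 (log2 0.61), IL10_control 2 (0.66), WT_control 1 (0.69) or WT_control 3 (0.49).

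In the JAK and STAT list 8 of 16 tested members rose and 0 fell, and when centred 4 were higher and 8 lower (the median of 0.59 turned to -0.58). Stat4, which carries IL-12 signals, rose 4.79-fold. The kinase Jak1 (0.29 ± 0.30) did not pass as deposited and passed as lower when centred (-0.88). In the TNF superfamily 14 of 24 rose and 1 fell (median 1.66; 7 higher and 6 lower when centred, median 0.49), with the TNF receptor Tnfrsf1b (4.27-fold) and Cd40 (5.83-fold) among the risers. Among bowel disease risk genes 5 of 10 rose and 2 fell, beside 53.6% of all tested genes that rose, and the phosphatase Ptpn22 rose 6.002-fold. When centred, 3 were higher and 5 lower (the median of 0.63 turned to -0.54). In the TGF-beta list 2 of 11 rose and 1 fell (median -0.21), and when centred 2 were higher and 8 lower (median -1.38). Tgfb1 read 177, 139 and 99.7 in WT_control and 499.8, 588 and 306 in IL10_control and rose 3.31-fold.

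The same label contrast in the STAT samples comes from other mice and shares no sample with the control-inoculum contrast. The fit shares 1 spread per gene between the contrasts, so their calls are not independent. Depth and label moved together in the STAT samples too, with total signal 270388 to 379011 in WT_STAT and 504724 to 551302 in IL10_STAT. Counts above background were 191012 to 276579 and 541733 to 717454, and the part of depth in the shared calls was not tested. Under STAT, 183 of 457 genes rose (40%) and 53 fell (11.6%), or 29 to 35 falls without WT_STAT 1, WT_STAT 2, IL10_STAT 1 or IL10_STAT 2. Of the genes that rose, 178 were shared, which is 72.7% of the control-inoculum rises and 97.3% of the STAT rises. All 18 control-inoculum falls also fell under STAT, where they were 34% of the falls, and no gene rose in one and fell in the other. Cxcl9 differed by 6.10 ± 0.26 under control inoculum and by 4.93 ± 0.26 under STAT, and Nox1 by 6.31 ± 0.36 and 5.57 ± 0.36.

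The difference between the contrasts was tested directly, and 0 of 457 genes passed in limma's test, with 97 at an unadjusted p under 0.05. The genes of smallest p were Irf4, Batf3, Ccl8, Mr1, Cd163 and Il18. Irf4 read 24.9, 24.2 and 22.6 in WT_control and 134, 79.9 and 94.2 in IL10_control against 97.7, 72.7 and 74.3 in WT_STAT and 69.6, 111 and 89.7 in IL10_STAT. It separated the labels under control inoculum, where the WT_control samples were low, and differed by 0.13 ± 0.25 under STAT (difference of the contrasts -1.90 ± 0.35, adjusted p = 0.0815). Batf3 differed by 1.84 ± 0.22 and 0.26 ± 0.22 (adjusted p = 0.0815) and Ccl8 by 4.45 ± 0.35 and 2.22 ± 0.35 (adjusted p = 0.104). Mr1, which presents microbial vitamin metabolites to T cells, differed by -0.22 ± 0.25 (a fall when centred, -1.39) and -1.65 ± 0.25, Cd163 by -1.10 ± 0.45 and -3.61 ± 0.45, and Il18 by -0.16 ± 0.22 and -1.41 ± 0.22 (adjusted p = 0.104, 0.104 and 0.104). With array weights 132 genes passed and without WT_STAT 3 it was 58, while without WT_STAT 2 or WT_control 3 it was 1.

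**Figure D5:**
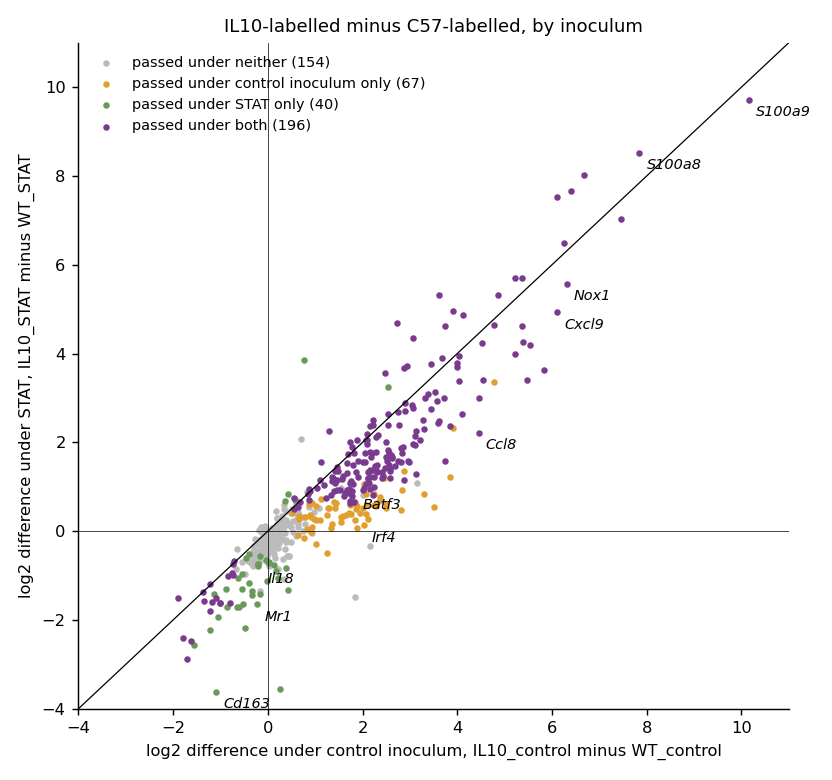
Each point is a tested gene, with its log2 difference between IL10-labelled and C57-labelled samples under control inoculum (x) and under STAT (y), 3 samples a group, and the diagonal marking equal values. Of 457 genes 196 passed in both (purple), 67 under control inoculum only (orange) and 40 under STAT only (green), and no gene passed for the difference.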

How the data were processed

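NanoString nCounter probes were counted in total RNA of 12 terminal ileum samples, per the labels' protocols. The authors deposited a normalized linear signal for 547 genes, and the background handling, scaling and software behind that signal are stated in no source used here. The values of a sample lie whole steps apart, as counts less a background and times a factor would, so the table was tested as a signal and not as counts. Precision is limited by the number of samples, and counts above background were 146691 to 506141 in the 6 samples compared.

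A gene was tested where 3 or more of 12 samples reached a signal of 20 (457 genes, with 90 left out). Differences are of mean log2(signal + 1), where the added 1 shrinks the ratio of low values. Calls on low genes can rest on values under 20, and 4 named genes lost theirs with such values set to 20. For low genes the log2 differences can exceed the bounds printed beside them. They were tested two-sided with limma 3.58.1 (R 4.3.3), using lmFit and eBayes on 4 group means over all 12 samples and Benjamini-Hochberg adjustment over all tested genes, called under 0.05. A fold is 2 to the log2 difference. Where every sample of a group is under 20, the fold is a bound with values under 20 set to 20, written as at least. Errors after ± are standard errors of the log2 difference (n = 3 in each group). Mothers and litters were not given, so p-values measure the spread between these samples, which may share a litter.

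Data were simulated for the control-inoculum comparison (457 genes, 100 of them changed, 20 draws). Noise was normal and independent around 1 mean per gene, with as many rises as falls and no shift of whole samples. There, 54% of genes changed by log2 1 and 83.9% of those changed by log2 2 were called, and 3.7% of calls were false. The real comparison has mostly rises and a shift that depends on the scaling, so these shares do not give its error rate.

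Genes were named by a rule: Il10, the 20 largest rises and all falls without overlap, up to 6 called members of each list and a few that did not pass, key cytokines, and the 6 genes of smallest p for the difference between inocula, of which not all are printed. Members and lists were chosen with earlier results of these data known. Symbols follow the table, with current ones from RefSeq, where 531 matched directly, 14 through a synonym and 2 not at all. Promoter windows come from RefSeq (GRCm38.p6), and 415 panel genes had one. Alternatives were other scalings, pseudocounts, filters, sample sets and weights, and leaving out each sample. Some genes are not reported here.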

Additional observations from a re-analysis of the deposited data

How the results depend on the processing

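Scaling decides the direction of the panel and of genes with small differences. With each sample centred on its median, 154 genes rose and 183 fell and the median log2 difference was -0.16, and with quantile normalization 124 rose and 186 fell with a median of -0.16. When centred, Ceacam1 (-0.53), Ifngr1 (-0.99), Il6st (-1.02), Jak1 (-0.88), Nfkbia (-0.51), Pecam1 (-0.67), Pigr (-0.53), Psmb7 (-1.09), Stat3 (-0.29), Ctsc (-0.49), Ifi35 (-0.61), Il13ra1 (-0.62) and Litaf (-0.52) turned negative. After quantile normalization Batf3 (-0.13), Bcl3 (-0.10), Btk (-0.30), Ceacam1 (-1.07), Cxcr5 (-0.60), Ifngr1 (-0.16), Il12rb1 (-0.69), Il17a (-0.50), Il6st (-0.76), Jak1 (-0.21), Muc1 (-0.020), Nfkbia (-0.12), Pecam1 (-0.36), Pigr (-0.85), Psmb7 (-0.50), Ifi35 (-0.19) and Litaf (-0.092) did. Centring on the 15 broadly expressed genes, a setting chosen after seeing the data, gave 279 rises and 26 falls. A pseudocount of 20 gave 248 and 19, values under 20 set to 20 gave 238 and 21, no filter 253 and 20 of 547 genes, a filter at 40 224 and 18 of 425, and the 6 samples alone 231 and 13. Array weights gave 262 rises and 47 falls (Il6st -0.086), and 132 genes for the difference between inocula. Leaving out 1 sample gave 218 to 243 rises, 11 to 39 falls and a median of 0.86 to 1.15. For the difference between inocula it gave 0 to 58 genes, all 58 lower and found without WT_STAT 3. Leaving out 1 sample moved Ifngr1 between -0.094 and 0.37, Il6st between -0.089 and 0.33 and Jak1 between -0.062 and 0.49, each negative without WT_control 3. No fall of the deposited scale turned into a rise in any of these settings, and centring on the median could only lower the falls. Of 145 named genes that passed, 19 kept their direction but not their call when centred, 30 after quantile normalization, 12 with the 6 samples alone and 2 to 12 without 1 sample. Calls lost after quantile normalization but not when centred included B2m, Batf, Cd22, Cd40, Gata3, Il18rap, Il6, Irf4 and Klrc1. Klrk1, Lta, Map4k1, Msr1, Prdm1, Stat4, Tigit and Tlr9 were others. The cause of these changes was not tested. Centring on the housekeeping list was not run, since 0 of its genes are among the 547. No paired analysis was possible because the labels give no replicate numbers. Signals under 20 give bounds only.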

Other observations

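Of the 90 genes left out as too low, 20 had all IL10_control values above all WT_control values and 6 had them below.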
